A study of Mus musculus with 7 samples.

Results

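The immediate early genes of the EGR, NR4A and IER families were followed in the thoracic aorta of knock-in mice made to model the vascular form of Ehlers-Danlos syndrome. The 9 genes (*Egr1*, *Egr2*, *Egr3*, *Nr4a1*, *Nr4a2*, *Nr4a3*, *Ier2*, *Ier3* and *Ier5*) were taken by symbol, out of 55487 genes in the files, and all 9 had enough counts to be tested. RNA sequencing was performed on aortas of 3 Col3a1+/G182R mice, heterozygous for a knock-in glycine-to-arginine change in type III procollagen, and of 4 Col3a1+/+ mice. All were 7-week-old C57BL/6 males, with 1 library per mouse. The selection cassette of the knock-in line had been deleted, and every cell carries the allele. The vessel was taken whole, so each value is an average over its cells, and fewer cells of a type cannot be told apart from less RNA per cell.

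Immediate early genes are transcribed within minutes of a stimulus from factors that the cell already holds, and need no new protein for it. The EGR proteins are zinc finger transcription factors that bind GC-rich sites and that the corepressors Nab1 and Nab2 restrain. The NR4A proteins are nuclear receptors that act without a known hormone and of which Nr4a1 and Nr4a2 can pair with retinoid X receptors. The IER proteins are small regulators without a DNA-binding domain in common. In the vessel wall these genes are known to respond to stretch, flow, growth factors and injury. In this study the genotypes were compared to learn what the collagen change does to the RNA of the aorta.

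Promoter sequences from 250 bases before to 50 after the transcription start were found for 6 of the 9 genes (*Egr2*, *Ier3*, *Ier5*, *Nr4a1*, *Nr4a2* and *Nr4a3*) in RefSeq on GRCm38.p6. Those of the NR4A family are shown because each holds the short form of the cAMP response element, TGACG on either strand, 4 times. Of 11111 promoters of tested genes, 30.9% held this short form and 61 (0.549%) held it at least 4 times, while *Egr2*, *Ier3* and *Ier5* had 0. The short form and the EGR binding site GCGNGGGCG, which lies in *Nr4a1* and *Nr4a2* on either strand and in 10.5% of promoters, are in capitals, and these did not overlap each other. The sequences run 5′ to 3′ on the strand of the gene, from chr15:101266596-101266895 (plus strand), chr2:57123954-57124253 (minus strand) and chr4:48045055-48045354 (plus strand).
Nr4a1: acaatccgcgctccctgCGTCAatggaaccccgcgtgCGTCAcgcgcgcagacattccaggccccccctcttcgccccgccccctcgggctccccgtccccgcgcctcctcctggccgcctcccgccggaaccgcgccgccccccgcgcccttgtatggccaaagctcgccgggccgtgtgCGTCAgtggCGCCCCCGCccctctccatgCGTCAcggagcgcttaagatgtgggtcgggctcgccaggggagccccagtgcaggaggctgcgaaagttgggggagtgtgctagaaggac
Nr4a2: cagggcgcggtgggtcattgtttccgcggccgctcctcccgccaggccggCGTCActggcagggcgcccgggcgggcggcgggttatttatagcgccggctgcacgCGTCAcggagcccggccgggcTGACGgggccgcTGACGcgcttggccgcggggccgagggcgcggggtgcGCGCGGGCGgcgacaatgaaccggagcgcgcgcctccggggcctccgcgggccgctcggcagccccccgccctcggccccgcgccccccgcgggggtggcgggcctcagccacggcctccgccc
Nr4a3: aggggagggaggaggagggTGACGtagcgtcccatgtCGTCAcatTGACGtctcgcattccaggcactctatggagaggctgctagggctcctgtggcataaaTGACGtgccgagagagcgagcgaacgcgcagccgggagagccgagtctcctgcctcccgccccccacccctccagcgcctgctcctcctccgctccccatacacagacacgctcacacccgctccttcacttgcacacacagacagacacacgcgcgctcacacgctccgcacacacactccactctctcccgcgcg

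The transcription start used for *Nr4a1* lies 12577 bases inside the gene as GENCODE M21 draws it, since that annotation also holds transcripts that start farther upstream. In *Nr4a1* all 4 read CGTCA on the strand of the gene and began at positions -233, -213, -69 and -40, counted from the transcription start. Those of *Nr4a2* began at -200, -144, -123 and -111 and those of *Nr4a3* at -231, -213, -205 and -147, in both orientations. The full palindrome TGACGTCA, which contains the short form, was in 0 of the 6 promoters and in 3.1% of all. The CArG box, to which serum response factor binds, was in 0 of 6 and in 1.33% of all. Boxes outside these windows of 300 bases were not looked for, so their absence from the genes is not shown. *Egr1*, *Egr3* and *Ier2*, for which no promoter sequence was found, were not searched for this box or any other motif. The heat shock factor pair TTCNNGAA, also read on both strands, was in 0 of 6 and in 6.94% of all. The promoter of *Ier5*, the member with the smallest p in the genotype comparison, therefore held none of the motifs searched. It reads, from chr1:155099587-155099886 on the minus strand:
Ier5: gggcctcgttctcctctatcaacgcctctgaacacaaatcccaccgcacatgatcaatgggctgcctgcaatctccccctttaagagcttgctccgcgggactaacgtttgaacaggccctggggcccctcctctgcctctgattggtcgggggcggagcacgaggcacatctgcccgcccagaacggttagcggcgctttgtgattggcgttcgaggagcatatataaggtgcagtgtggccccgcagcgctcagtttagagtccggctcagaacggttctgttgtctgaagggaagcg

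All of the 9 genes but *Nr4a3* were shorter than the median gene. On GRCm38 they spanned 1240 (*Ier3*) to 41295 bases (*Nr4a3*), and 8 of 9 lay below the median of 24442 bases over 13488 protein-coding genes tested. *Egr1* is on chromosome 18 from 34859823 to 34864984, *Egr2* on chromosome 10 from 67535475 to 67542188 and *Egr3* on chromosome 14 from 70077203 to 70082614, each with 2 exons in its longest transcript. *Nr4a1* (chromosome 15, 101254269 to 101274795), *Nr4a2* (chromosome 2, 57106830 to 57124003) and *Nr4a3* (chromosome 4, 48045153 to 48086447) have 8 exons each, the median of all genes. *Ier2* (chromosome 8, 84661331 to 84662852) and *Ier5* (chromosome 1, 155096361 to 155099636) have 1 exon, and *Ier3* (chromosome 17, 35821684 to 35822923) has 2. The pentamer ATTTA, part of the elements through which short-lived mRNAs are degraded, was present in the 3′ untranslated region of 8 of 9. Of 13339 tested coding genes with such a region, 30.5% held no ATTTA in it. The density of ATTTA there was above the median of 1.29 per kilobase in 7 of 9, with 8.16 in *Ier3*, 5.53 in *Nr4a1* and none in *Ier2*.

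In aorta the 9 genes fell into 5 of middling level and 4 of low level. Levels between genes are given in TPM, the share of a gene among all transcripts of a library, corrected for transcript length. *Ier3*, which affects survival and the ERK pathway, had 27.3 ± 6.41 TPM in Col3a1+/G182R and 23.7 ± 3.24 TPM in Col3a1+/+ aortas (SD, n = 3 and 4 mice). *Ier2*, a nuclear protein that affects transcription, had 22.7 ± 6.60 TPM in Col3a1+/G182R and 21.3 ± 2.02 TPM in Col3a1+/+. The genotypes overlapped in both. *Egr1* followed with 25.1 ± 2.01 TPM in Col3a1+/G182R and 17.1 ± 5.72 TPM in Col3a1+/+. *Ier5* had 21.7 ± 5.20 TPM in Col3a1+/G182R and 13.4 ± 2.59 TPM in Col3a1+/+, and *Nr4a1* had 18.8 ± 4.36 TPM in Col3a1+/G182R and 14.8 ± 3.80 TPM in Col3a1+/+. The first 4 of these were each above the next in only 4 or 5 of 7 libraries, and neighbours overlapped within both genotypes, so that their order was not resolved. By mean TPM they stood at percentiles 60.6 (*Nr4a1*) to 70.9 (*Ier3*) of the genes tested.

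A step of 6.45-fold separated *Nr4a1* from *Nr4a2*, which lay below it in 7 of 7 libraries. *Nr4a2*, known for its part in dopamine neurons, had 3.16 ± 0.709 TPM in Col3a1+/G182R and 2.10 ± 0.563 TPM in Col3a1+/+. *Nr4a3*, known in smooth muscle as a factor of proliferation, had 2.89 ± 2.62 TPM in Col3a1+/G182R and 1.40 ± 0.489 TPM in Col3a1+/+ and overlapped *Nr4a2* in both genotypes. *Egr3*, required for muscle spindles, had 0.697 ± 0.273 TPM in Col3a1+/G182R and 0.653 ± 0.421 TPM in Col3a1+/+. *Egr2*, the regulator of myelination in Schwann cells, was lowest with 0.503 ± 0.215 TPM in Col3a1+/G182R and 0.393 ± 0.0818 TPM in Col3a1+/+, at percentile 3.93 of all genes tested. *Egr3* lay below *Nr4a3* in 7 of 7 libraries, yet their ranges overlapped in Col3a1+/+.

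**Figure D1:**
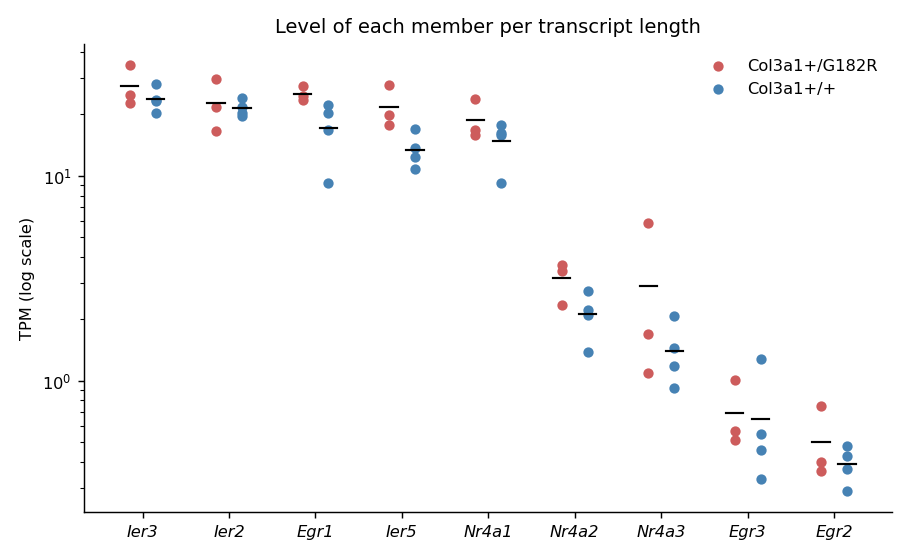
TPM of each gene (vertical axis, log scale) in each mouse, Col3a1+/G182R left of Col3a1+/+, with lines at the genotype means, in order of the mean over 7 libraries. From *Ier3* to *Nr4a1* the genes overlap, and *Nr4a2* lies 6.45-fold under *Nr4a1*.

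Within each family 1 or a few genes supplied most of the RNA. *Egr1* made up 94.9 to 96.4% of the summed TPM of the 3 EGR genes in Col3a1+/G182R and 91.9 to 95.8% in Col3a1+/+ aortas. *Nr4a1* made up 62.4 to 84.0% of the NR4A sum in Col3a1+/G182R and 74.7 to 86.1% in Col3a1+/+. The IER sum was shared, with *Ier5* at 27.4 to 35.0% in Col3a1+/G182R against 21.0 to 26.3% in Col3a1+/+, ranges that did not overlap. The EGR relative *Egr4* had 0 counts in every library. The TPM of *Egr2* and *Egr3* also moved with the effective length that was estimated for them in each library. Col3a1+/G182R mouse 1 had 56 counts of *Egr3* over an effective length of 3478 bases and 1.01 TPM, while in Col3a1+/+ mouse 1 31 counts over 1667 bases gave 1.27 TPM.

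Total counts ran from 18820015 to 23953746 in Col3a1+/G182R and from 13693861 to 21634680 in Col3a1+/+ libraries. Gene length exceeded the effective length, by an amount that follows fragment or read length, by 121 to 131 bases in Col3a1+/G182R and 114 to 120 bases in Col3a1+/+ libraries, without overlap, and its part in the results was tested only through an offset for effective length. *Col3a1* itself, counted from both alleles together, had 4107, 4216 and 5208 CPM (counts scaled to library size) in Col3a1+/G182R and 5483, 3965, 3578 and 2831 CPM in Col3a1+/+ libraries (log2 fold change 0.19, edgeR adjusted p = 0.633). The counts do not separate the alleles and so do not check the genotypes. The smooth muscle markers *Acta2*, *Myh11*, *Tagln*, *Cnn1*, *Smtn* and *Lmod1* summed to 23831 to 25589 TPM in Col3a1+/G182R and 17503 to 28541 TPM in Col3a1+/+, so that both held smooth muscle.

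All 9 genes had a mean CPM above that of Col3a1+/+ in Col3a1+/G182R aortas, and none passed the main test. The log2 fold changes ran from 0.06 (*Ier2*) to 0.87 (*Nr4a3*) with a median of 0.40, against a median of 0.00768 over the 15688 genes tested, of which 50.7% were above 0. Without Col3a1+/G182R mouse 1 the median over the 9 was 0.18. With edgeR's quasi-likelihood test and Benjamini-Hochberg adjustment over all genes, 0 of 9 passed an adjusted p of 0.05, against 0.0382% of all genes (6 genes, 0.0191% higher and 0.0191% lower). At an unadjusted p under 0.05, 1 of 9 was higher (*Ier5*), against 9.57% of all genes higher. DESeq2 called 1 of 9 higher, again *Ier5*, against 1.98% higher and 2.53% lower (4.52% in all) of the genes it tested. It gave *Egr2* no adjusted p, so that this gene could not be called. In 2 of 9, *Egr1* and *Ier5*, every Col3a1+/G182R mouse lay above every Col3a1+/+ mouse, against 10.1% of all genes. The p-values measure the spread between these mice only.

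*Egr1* encodes the zinc finger factor that vascular cells induce on injury and shear. It had 57.6, 53.0 and 45.5 CPM in Col3a1+/G182R mice 1, 2 and 3, against 44.4, 20.4, 37.8 and 42.3 CPM in Col3a1+/+ mice 1, 2, 3 and 4. The genotypes did not overlap, but the lowest Col3a1+/G182R mouse and the highest Col3a1+/+ mouse were close, and Col3a1+/+ mouse 2 stood far below the rest. The log2 fold change was 0.52 (standard error 0.235, 95% interval -0.0037 to 1.05, adjusted p = 0.247 from edgeR and 0.206 from DESeq2). Without Col3a1+/+ mouse 2 it was 0.33 with a standard error of 0.141 (edgeR adjusted p = 0.229).

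*Egr3* had 2.51, 1.58 and 1.26 CPM in Col3a1+/G182R mice, against 1.44, 0.938, 1.57 and 1.22 CPM in Col3a1+/+ mice. Only Col3a1+/G182R mouse 1 was clearly above the others, and the genotypes overlapped (log2 fold change 0.47, standard error 0.349, edgeR adjusted p = 0.455). Without that mouse the log2 fold change was 0.13, and with an offset for effective length, which differs between libraries for this gene, it was also 0.13 (edgeR adjusted p = 0.894). *Egr2* rested on few reads, with 18, 12 and 13 counts in Col3a1+/G182R libraries and 5, 12, 10 and 9 counts in Col3a1+/+ libraries. Apart from the 5 counts of Col3a1+/+ mouse 1 the libraries were alike, and the 95% interval of the log2 fold change, -0.68 to 1.35, spanned 0 widely, so that a difference was not detectable at this depth. Its log2 fold change of 0.33 (edgeR adjusted p = 0.691) was 0.06 without that mouse.

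*Nr4a1*, induced in vascular cells by many growth signals, had 37.7, 28.4 and 23.4 CPM in Col3a1+/G182R mice, against 23.2, 14.1, 29.8 and 23.6 CPM in Col3a1+/+ mice. Col3a1+/G182R mouse 1 was highest and Col3a1+/+ mouse 2 lowest, while the other 5 overlapped. The log2 fold change was 0.40 (standard error 0.243, edgeR adjusted p = 0.363), 0.18 without the first of these mice and 0.23 without the second. *Nr4a2* had 6.56, 4.91 and 6.83 CPM in Col3a1+/G182R mice, against 5.84, 5.10, 4.90 and 3.05 CPM in Col3a1+/+ mice. Here the genotypes overlapped and Col3a1+/+ mouse 4 was lowest. Its log2 fold change was 0.36 (standard error 0.255, edgeR adjusted p = 0.425), and 0.19 without Col3a1+/+ mouse 4.

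*Nr4a3* had the largest log2 fold change of the 9, and it rested on 1 mouse. It had 4.04, 6.19 and 17.5 CPM in Col3a1+/G182R mice, against 4.86, 3.40, 7.80 and 4.13 CPM in Col3a1+/+ mice. Col3a1+/G182R mouse 3 stood above all others, whereas Col3a1+/G182R mouse 1 was among the lowest. The log2 fold change was 0.87 (standard error 0.472, 95% interval -0.19 to 1.92, edgeR adjusted p = 0.317), and 0.01 without Col3a1+/G182R mouse 3. In that mouse *Nr4a3* took 23.2% of the summed TPM of its family, against 6.42 to 9.42% in Col3a1+/+ mice.

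*Ier5* is known from human cells to promote the dephosphorylation of heat shock factor 1 and so the transcription of its chaperone targets. It had 40.1, 45.6 and 57.3 CPM in Col3a1+/G182R mice, against 36.0, 25.4, 29.6 and 30.5 CPM in Col3a1+/+ mice. All Col3a1+/G182R mice were above all Col3a1+/+ mice, with Col3a1+/+ mouse 1 nearest to them. Its mean was 47.7 ± 8.76 CPM in Col3a1+/G182R and 30.4 ± 4.38 CPM in Col3a1+/+ (SD, n = 3 and 4), a ratio of 1.57. The log2 fold change was 0.65 (standard error 0.161, 95% interval 0.29 to 1.01), and it missed the threshold with edgeR (adjusted p = 0.152) and passed with DESeq2 (adjusted p = 0.0245). The DESeq2 call was lost without Col3a1+/G182R mouse 2 (adjusted p = 0.183) or mouse 3 (0.299) and without Col3a1+/+ mouse 2 (0.0634) or mouse 3 (0.152), while the log2 fold change stayed between 0.49 and 0.75 in edgeR with any 1 mouse left out.

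The other IER genes, *Ier2* and *Ier3*, overlapped between genotypes. *Ier2* had 21.7, 30.6 and 15.3 CPM in Col3a1+/G182R mice, against 23.0, 21.2, 23.1 and 19.4 CPM in Col3a1+/+ mice. Both the highest and the lowest value were of Col3a1+/G182R mice, and the log2 fold change was 0.06 (95% interval -0.41 to 0.52, edgeR adjusted p = 0.890), with -0.22 without Col3a1+/G182R mouse 2. *Ier3* had 17.8, 16.7 and 23.0 CPM in Col3a1+/G182R mice, against 15.9, 15.3, 18.1 and 20.1 CPM in Col3a1+/+ mice. Col3a1+/G182R mouse 3 was highest, the rest overlapped, and the log2 fold change was 0.14 (95% interval -0.22 to 0.50, edgeR adjusted p = 0.622), with -0.02 without that mouse.

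*Ier5l*, a relative of *Ier5* by sequence and not among the 9, was lower in Col3a1+/G182R aortas. It had 6.15, 11.1 and 4.20 CPM in Col3a1+/G182R mice, against 16.4, 21.6, 11.7 and 10.8 CPM in Col3a1+/+ mice. Col3a1+/G182R mice 1 and 3 were below all Col3a1+/+ mice and Col3a1+/G182R mouse 2 just above Col3a1+/+ mouse 4. The log2 fold change was -1.08 (standard error 0.348), with an adjusted p of 0.170 from edgeR and 0.0453 from DESeq2. The DESeq2 call was lost without Col3a1+/G182R mouse 1 (adjusted p = 0.158) or mouse 3 (0.325) and without Col3a1+/+ mouse 2 (0.117) or mouse 3 (0.0998).

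**Figure D2:**
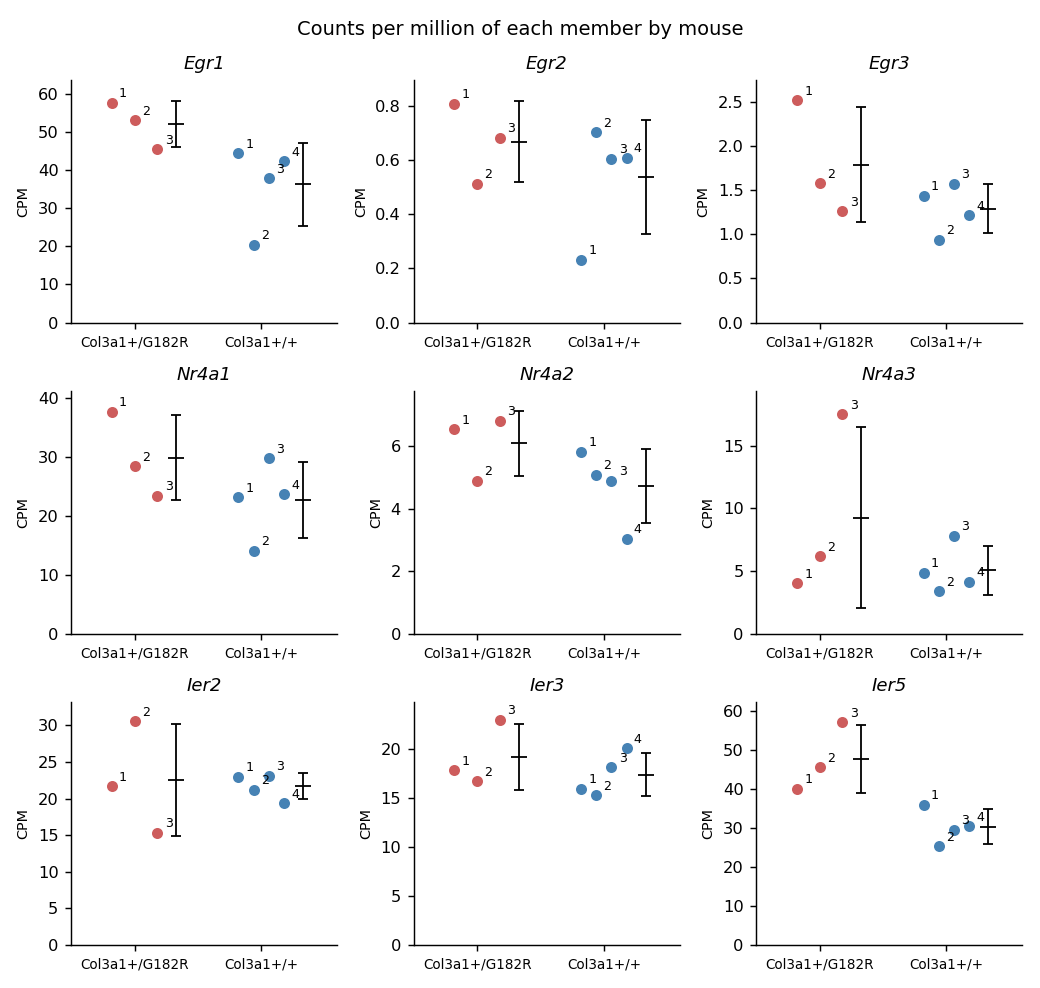
CPM of each gene (vertical axes from 0, 1 panel per gene) in each mouse, with the mouse number beside each point and the mean ± SD of the genotype at its right. *Egr1* and *Ier5* are the genes whose genotypes do not overlap, and the mean of *Nr4a3* in Col3a1+/G182R is drawn up by mouse 3 at 17.5 CPM.

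**Figure D3:**
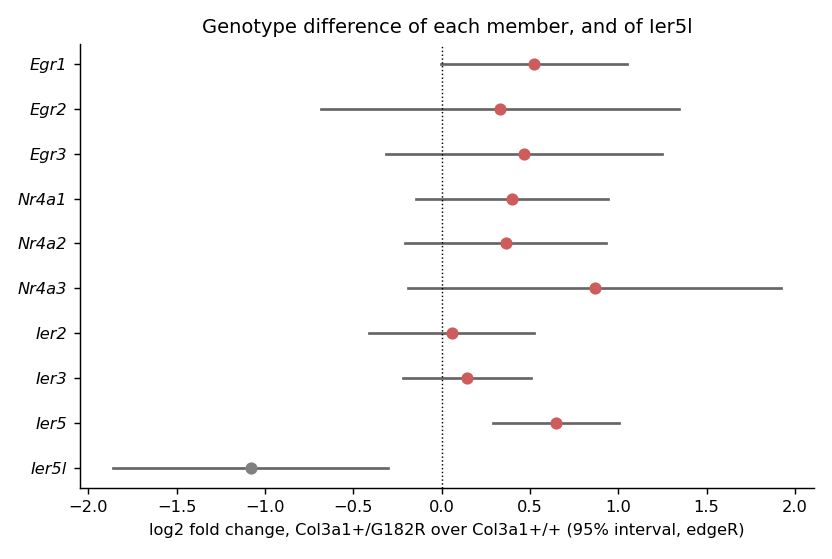
Difference between Col3a1+/G182R and Col3a1+/+ as log2 fold change (horizontal axis, above 0 where Col3a1+/G182R is higher) with its 95% interval from edgeR for the 9 genes (red) and *Ier5l* (grey). Among the 9, the interval lies above 0 for *Ier5* alone (0.29 to 1.01), and that of *Egr1* begins at -0.0037.

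Between mice of 1 genotype, 7 of the 9 genes varied more than the median gene. The SD of log2 CPM within genotype had a median of 0.383 over the 9 and of 0.266 over all genes tested. *Nr4a3* had 0.782, at percentile 95.2 of all genes, and *Egr2* 0.483, whereas *Ier3* (0.207) and *Ier5* (0.229) were under the median. The highest value was of a Col3a1+/G182R mouse for all 9 genes, namely of mouse 1 for 4 (*Egr1*, *Egr2*, *Egr3* and *Nr4a1*), of mouse 3 for 4 (*Nr4a2*, *Nr4a3*, *Ier3* and *Ier5*) and of mouse 2 for *Ier2*. The lowest was of Col3a1+/+ mouse 2 for 6 of 9. Around its own mean, *Egr1* lay at -1.01 on the log2 scale in that mouse and *Nr4a1* at -0.82, while *Egr2* was at -1.27 in Col3a1+/+ mouse 1. The share of all genes tested with their highest or lowest value in these mice was not counted, so these extremes do not set the 9 genes apart.

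The 3 Col3a1+/G182R mice did not share 1 order. *Egr1*, *Egr3* and *Nr4a1* were highest in mouse 1 and lowest in mouse 3, whereas *Nr4a3* and *Ier5* were highest in mouse 3 and lowest in mouse 1. *Egr2*, *Nr4a2*, *Ier2* and *Ier3* stood in neither of these orders. Several marker lists stood in one of them, whereas the Schwann cell, striated muscle and lymphocyte lists stood in neither. The 8 macrophage markers followed the second, summing to 193, 265 and 537 TPM in Col3a1+/G182R mice 1, 2 and 3, against 231, 139, 161 and 170 TPM in Col3a1+/+ mice. Of these 8, all had a log2 fold change above 0 (50.7% of all genes), 6 were higher at an unadjusted p under 0.05 (9.57% of all genes), the median was 0.74 and none was at 0. The sums of fibroblast (1187 to 1580 TPM), endothelial (155 to 227 TPM), adipocyte (2209 to 4712 TPM) and lymphatic endothelial markers (7.57 to 15.97 TPM) were likewise lowest in Col3a1+/G182R mouse 1 and highest in mouse 3. In Col3a1+/+ mice these lists summed to 685 to 1607, 86.8 to 218, 2112 to 4227 and 3.28 to 6.10 TPM, and the lymphatic list alone of them did not overlap between genotypes (4 of 4 above 0, median 1.24). Log2 fold changes were above 0 for 5 of 6 fibroblast (median 0.47), 4 of 6 endothelial (0.21) and 5 of 6 adipocyte markers (0.41). At an unadjusted edgeR p under 0.05, 3 fibroblast, 1 endothelial, 1 adipocyte and 2 lymphatic endothelial markers were higher (9.57% of all genes) and 0 lower. The red blood cell markers followed the first order, with 1781, 935 and 651 TPM in Col3a1+/G182R mice, against 390 to 997 TPM in Col3a1+/+ mice (4 of 4 above 0, median 0.77). So did the smooth muscle markers, with 25589, 25076 and 23831 TPM in Col3a1+/G182R mice, against 17503 to 28541 TPM in Col3a1+/+ mice. Of these 6 markers, 1 had a log2 fold change above 0, and the median was -0.05. The striated muscle markers were lower in Col3a1+/G182R aortas, with sums of 14.4 to 19.5 TPM, against 23.4 to 50.8 TPM in Col3a1+/+, and of the 4 tested 0 were above 0, 3 had an unadjusted p under 0.05 (10.8% of all genes lower) and the median was -0.92. Col3a1+/+ mouse 2, lowest for 6 genes, also had the lowest sums of macrophage, red blood cell, fibroblast, endothelial, adipocyte, lymphatic endothelial and Schwann cell markers of all 7 libraries. The part of these cells in the values was not tested.

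**Figure D4:**
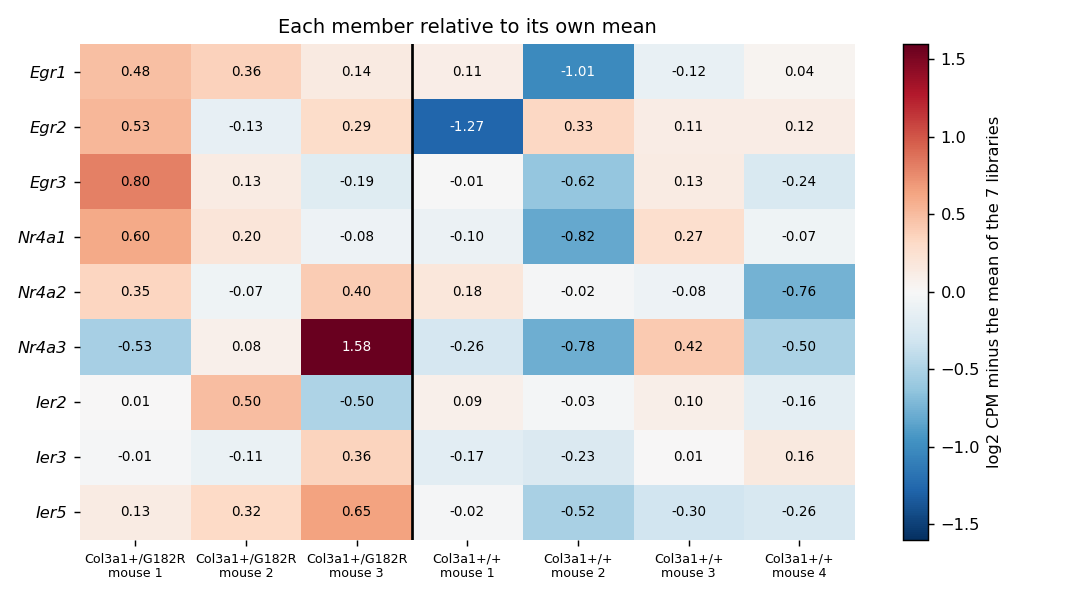
Log2 CPM of each gene (rows) in each mouse (columns, Col3a1+/G182R left of the line) minus its mean over 7 libraries, as colour and as printed value. Col3a1+/+ mouse 2 is at -1.01 for *Egr1* and -0.82 for *Nr4a1*, and *Nr4a3* reaches 1.58 in Col3a1+/G182R mouse 3.

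Likeness of pattern was measured as the root mean square difference of centred log2 CPM over the 7 libraries, from each gene to all 15688 tested, with 0 for identical patterns. Among them *Egr3* was nearest to *Nr4a1*, at 0.149, followed by *Dynlt1-ps1* (0.158) and *Morn1* (0.168). Nearest to *Egr1* were *Pcdh18* (0.116), the pseudogene *Dynlt1-ps1* (0.122) and *Tnfsf13b* (0.146), and *Nr4a1* was the nearest of the other 8 genes (0.219). *Ier5* was followed most closely by *Jcad*, which encodes a junction protein of endothelial cells (0.0615), *Fxyd2* (0.0986) and *Erlin1* (0.104). With the genotype means subtracted, *Egr3* was 13th from *Nr4a1*, *Pcdh18* 11th from *Egr1* and *Jcad* the third from *Ier5*. These are descriptions over 7 libraries that share their depth and their genotype means.

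The genes of the partners of the EGR and NR4A proteins did not pass the test. *Nab1* had 95.3, 92.4 and 79.0 CPM in Col3a1+/G182R mice, against 80.0, 80.0, 60.7 and 41.5 CPM in Col3a1+/+ mice (log2 fold change 0.44, edgeR adjusted p = 0.271), and *Nab2* had a log2 fold change of -0.13 (adjusted p = 0.650). For the retinoid X receptors the log2 fold changes were -0.28 (*Rxrb*, edgeR adjusted p = 0.259), -0.05 (*Rxra*) and 0.12 (*Rxrg*). Of these 5 genes 0 passed with edgeR or DESeq2, against 0.0382% and 4.52% of the genes each tested. An unadjusted edgeR p under 0.05 was found for 0 of 5, against 20.4% of all genes. *Rxrb* had no overlap between genotypes, as had 10.8% of all genes in this direction. It had 37.5 to 40.9 CPM in Col3a1+/G182R and 41.7 to 56.7 CPM in Col3a1+/+.

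Of 15 transcription factors and coactivators that drive immediate early genes, 9 had a log2 fold change above 0, with a median of 0.05 that ran from -0.0099 to 0.14 with a mouse left out. With edgeR and with DESeq2 0 passed, against 0.0382% and 4.52% of the genes each tested. At an unadjusted edgeR p under 0.05 there were 3 higher and 2 lower, against 9.57% and 10.8% of all genes. *Srf*, which binds the CArG box, had 52.6, 47.6 and 43.1 CPM in Col3a1+/G182R mice, against 46.0, 27.6, 24.2 and 21.9 CPM in Col3a1+/+ mice (log2 fold change 0.67, edgeR adjusted p = 0.180). Col3a1+/+ mouse 1 lay within the range of the Col3a1+/G182R mice and the other Col3a1+/+ mice below it. *Mef2c*, a muscle factor, had a log2 fold change of 0.48 (edgeR adjusted p = 0.205), and *Crtc2*, a coactivator of CREB, one of -0.47 (edgeR adjusted p = 0.214).

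Among 9 genes known as EGR1 targets in vascular cells, 7 had a log2 fold change above 0 and the median was 0.14, while the one that DESeq2 called was lower (2.53% of all genes). The median was 0.29 without Col3a1+/+ mouse 1 and 0.22 without Col3a1+/+ mouse 2. The gene that DESeq2 called was *Pdgfa*, the A chain of platelet-derived growth factor. It had 71.8, 77.0 and 64.1 CPM in Col3a1+/G182R mice, against 97.1, 97.8, 149 and 112 CPM in Col3a1+/+ mice. All Col3a1+/G182R mice were below all Col3a1+/+ mice (log2 fold change -0.68 with a standard error of 0.170, adjusted p = 0.152 from edgeR and 0.0173 from DESeq2). The protein cleaving heparan sulfate encoded by *Hpse* and the matrix protein encoded by *Thbs1* had log2 fold changes of 0.87 and 0.77 (edgeR adjusted p = 0.244 and 0.297).

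The immediate early genes outside the 3 families were mostly measured higher as well. Of 35, 34 were tested (*Fosl1* had too few counts), 33 had a log2 fold change above 0, and the median was 0.55. edgeR called 1 of the 34 higher (0.0191% of all genes), DESeq2 7 (1.98%), and 14 were higher at an unadjusted edgeR p under 0.05 with 0 lower, against 9.57% of all genes higher. *Dusp2* had no adjusted p from DESeq2. *Klf6*, a zinc finger factor, rose in Col3a1+/G182R aortas and passed both tests, with 190, 150 and 200 CPM in Col3a1+/G182R mice, against 77.3, 87.2, 88.5 and 70.7 CPM in Col3a1+/+ mice (log2 fold change 1.15, adjusted p = 0.0373 from edgeR and 1.02e-09 from DESeq2). Its edgeR call, as that of any gene, was lost without any 1 Col3a1+/G182R mouse and without Col3a1+/+ mouse 2 or 3, where 0 genes passed and 1830 to 3315 had an unadjusted p under 0.05. *Ptgs2*, the inducible cyclooxygenase, and *Sgk1*, a kinase induced by serum and glucocorticoids, passed DESeq2 alone, with log2 fold changes of 1.65 and 1.03 (edgeR adjusted p = 0.119 and 0.144). The one gene below 0 was *Klf10* (-0.61, edgeR adjusted p = 0.296), named after its value was seen. The 9 EGR, NR4A and IER genes thus had a median of 0.40 and these 34 one of 0.55, and the difference between both medians was not tested. Without Col3a1+/G182R mouse 3 the medians were 0.30 over the 9 and 0.31 over the 34, and without Col3a1+/+ mouse 2 both were 0.34.

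The mRNA decay factors that bind AU-rich elements had a median of 0.00464 over 6 genes (-0.071 to 0.085 with a mouse left out). Of these 6, 0 passed edgeR or DESeq2 (0.0382% and 4.52% of the genes each tested). An unadjusted edgeR p under 0.05 was found for 0 (20.4% of all genes). The largest differences by p were of *Zfp36l1* (0.20), *Zfp36* (0.26) and *Khsrp* (-0.11), with edgeR adjusted p of 0.353, 0.380 and 0.638. Of heat shock factor 1 and its chaperone targets, 12 of 14 had a log2 fold change above 0 and the median was 0.34, with 0 passing edgeR, 2 higher in DESeq2 (1.98% of all genes) and 4 higher and 1 lower at an unadjusted edgeR p under 0.05 (9.57% and 10.8% of all genes). The median was 0.13 without Col3a1+/G182R mouse 3, 0.54 without Col3a1+/G182R mouse 1, 0.52 without Col3a1+/+ mouse 3 and 0.18 with the replicate block. *Dnajb1*, a cochaperone of HSP70, had 38.8, 42.2 and 63.7 CPM in Col3a1+/G182R mice, against 32.0, 30.0, 28.0 and 29.9 CPM in Col3a1+/+ mice (log2 fold change 0.69, adjusted p = 0.153 from edgeR and 0.0235 from DESeq2). Its Col3a1+/G182R mice stood in the same order as for *Ier5*, with mouse 3 highest. *Nr4a3* and the sums of macrophage, fibroblast, endothelial, adipocyte and lymphatic endothelial markers stood in that order too. The genotypes of *Dnajb1* did not overlap, as in 10.1% of all genes in this direction. *Dnaja1* had 108, 171 and 289 CPM in Col3a1+/G182R mice, against 114, 101, 107 and 87.6 CPM in Col3a1+/+ mice (log2 fold change 0.89, adjusted p = 0.168 from edgeR and 0.0428 from DESeq2). *Hspa1b* had 33.9, 35.5 and 176 CPM in Col3a1+/G182R mice, against 25.7, 14.9, 24.6 and 16.2 CPM in Col3a1+/+ mice (mean 81.7 ± 81.4 CPM in Col3a1+/G182R and 20.4 ± 5.58 CPM in Col3a1+/+, SD, n = 3 and 4, edgeR adjusted p = 0.158), and its reads may be shared with a near-identical copy. In both of these Col3a1+/G182R mouse 3 was far above the others, as it was for *Nr4a3*.

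**Figure D5:**
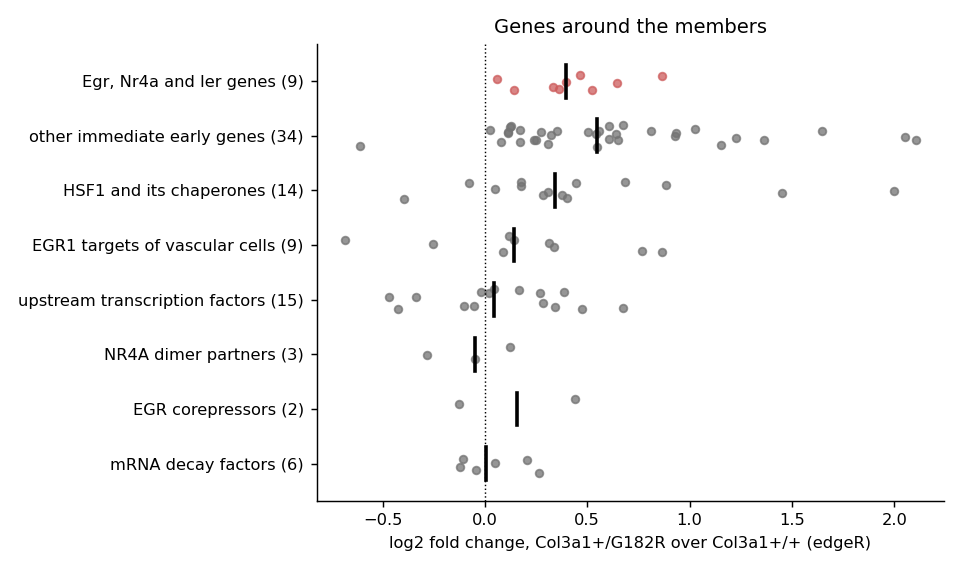
Difference between Col3a1+/G182R and Col3a1+/+ as edgeR's log2 fold change (horizontal axis, above 0 where Col3a1+/G182R is higher) of each tested gene of each list (points, number tested in brackets), with a bar at the median. The 9 EGR, NR4A and IER genes (red) are all above 0 with a median of 0.40, and the other immediate early genes have a median of 0.55 and 1 gene below 0.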

How the data were processed

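RNA of thoracic aortas was sequenced from a stranded poly(A) kit, with 1 library per mouse. Per the submitters' processing notes, the authors aligned reads to GRCm38 with STAR 2.7.6a and estimated expected counts with RSEM 1.3.1. The deposited expected counts of 24.5 to 27.6% of genes above 0 were not whole, since RSEM divides reads that match several genes. The counts of the 9 genes were whole in 7 of 7 libraries. The deposited TPM values are the authors' RSEM estimates of each gene's share of transcripts, corrected for length. Effective gene lengths, deposited by the authors in bases, served as an offset. The methods section names featureCounts, DESeq2 and limma instead of RSEM. The annotation release is not given in the sources used here. Symbols and places came from GENCODE M21 for 55227 of 55487 identifiers.

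Expected counts were rounded, filtered with filterByExpr (minimum count 10) and scaled with TMM factors. The genotype test was that of edgeR 4.0.16 (quasi-likelihood, two-sided, genotype the only term, R 4.3.3) over 15688 genes with Benjamini-Hochberg adjustment at 0.05. CPM are after TMM, and log2 CPM used a prior count of 2. The steps were tested on simulated data. DESeq2 1.42.0, limma 3.58.1 (voom, with and without quality weights), RLE factors, 2 other count filters, the offset, a replicate block and leaving out each mouse were alternatives. Nothing in the labels pairs mice of equal number. The 9 genes and the lists were chosen with earlier results of these data known. Named besides the 9 are up to 3 genes of each list with the smallest edgeR p and the 3 genes most like *Egr1*, *Nr4a1* and *Ier5*, with predicted genes left out. DESeq2 with a mouse left out, TTCNNGAA and ATTTA were added after the data were seen.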

Additional observations from a re-analysis of the deposited data

How the results depend on the processing

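The log2 fold change stayed above 0 under all alternatives run for *Egr1*, *Egr2*, *Egr3*, *Nr4a1*, *Nr4a2*, *Nr4a3* and *Ier5*. For *Ier2* it was -0.042 with the replicate block, -0.22 without Col3a1+/G182R replicate 2 (also -0.22 with DESeq2) and -0.0010 without Col3a1+/+ replicate 4, and -0.22 to 0.26 over all mice left out in turn. For *Ier3* it was -0.017 without Col3a1+/G182R replicate 3 and -0.017 to 0.24 over all mice left out in turn. DESeq2 gave *Ier3* 0.14 with all mice and -0.0049 without Col3a1+/G182R replicate 3. Against 0 of the 9 passing in edgeR (1 at an unadjusted p under 0.05), 1 passed with DESeq2, with quality weights (adjusted p = 0.0462) and with no low-count filter (adjusted p = 0.0437), in each case *Ier5*. With DESeq2 and a mouse left out 0 to 1 passed. At an unadjusted p under 0.05, against 1, there were 2 with DESeq2, voom, quality weights, the offset for effective length and the replicate block, 3 with no filter, and 1 to 2 with a replicate left out. A stricter filter, 10 counts or more in each library, left out *Egr2*. The median of the retinoid X receptors ran from -0.24 to -0.011 with a replicate left out.

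Over all genes 6 passed in edgeR, 667 in DESeq2, 11 in voom, 546 with quality weights, 353 with no filter, 14 with the offset, 46 with the replicate block (without which 6), and 0 under the stricter filter (3046 had an unadjusted p under 0.05). Leaving out a replicate gave 0 to 183, with 183 without Col3a1+/+ replicate 1, 32 without Col3a1+/+ replicate 4 and 0 otherwise (1830 to 3315 at an unadjusted p under 0.05). The cause of these differences was not tested. By CPM in place of TPM *Egr1* was first and *Ier3* 5th. On the coding strand alone 1 of 6 promoters held the EGR site. The counts of *Egr2* (5 to 18) limit it to large differences. Same-numbered mice of both genotypes had correlations of -0.047, 0.015 and 0.078 in their deviations from the genotype means, and 2 of 6 libraries correlated best with their own number, so that the replicate block pairs mice that share only a number. Col3a1+/+ replicate 4 has no partner in that block and adds nothing directly to its genotype difference.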

Other observations

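Genes near other members of the families in pattern over the 7 libraries were looked at after the values were seen, by the same root mean square difference of centred log2 CPM. Nearest to *Nr4a3* were *Cd48* (0.174) and *Evi2b* (0.234), both known from white blood cells, then *Myoz2* (0.243) and *Tfec*, a factor of macrophages (0.244). *Cd48* had 1.03, 1.83 and 4.73 CPM in Col3a1+/G182R mice, against 1.25, 0.762, 1.51 and 1.08 CPM in Col3a1+/+ mice, with Col3a1+/G182R mouse 3 far above the rest, as for *Nr4a3*. Its log2 fold change was 1.12 (edgeR adjusted p = 0.244). Nearest to *Ier2* were *Hes1*, a transcriptional repressor induced by Notch (0.112), *Ssc4d* (0.123) and *Id1*, a target of BMP signaling (0.129). *Id1* had 47.6, 57.3 and 37.3 CPM in Col3a1+/G182R mice, against 52.6, 51.1, 48.7 and 38.5 CPM in Col3a1+/+ mice, so that Col3a1+/G182R mouse 2 was highest and mouse 3 lowest, the order *Ier2* had. Nearest to *Egr3* was *Cnr1*, the cannabinoid receptor of neurons (0.104). Within 7 libraries such matches are descriptions and were not tested.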
